A study of Mus musculus with 24 samples.

Results

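Gene expression under endothelin-1 overexpression, 16 days after tamoxifen, was measured in the mesenteric arteries of 12 male mice, which gave 12 of the 24 libraries in the series. The 6 libraries headed ieET-1 (short term) were compared with the 6 headed ieCre (short term), across all 14544 genes that passed a filter on low values. The ieCre controls carried a Cre recombinase that tamoxifen switches on, driven by the Tie2 promoter and so aimed at endothelial cells. The ieET-1 mice carried that Cre too and, once induced, made human endothelin-1 in excess in their endothelium. Mice of either genotype were 10 to 12 weeks old, received tamoxifen at 1 mg/kg/day under the skin for 5 days, and were killed 16 days later, so that Cre and tamoxifen were common to both groups. Tie2 is also known to be active in some blood cells, which limits the Cre as an endothelial tool. Each library came from 1 mouse, named here by its animal ID, and libraries were made from total RNA after ribosomal RNA depletion. The other 12 libraries, taken 3 months after tamoxifen, entered the model only to estimate the spread and for the test of a difference between the times.

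Endothelin-1 is a peptide that endothelial cells release and that acts on the ETA and ETB receptors. On smooth muscle, ETA receptors couple to calcium release and contraction, and on endothelium ETB receptors release nitric oxide. The arterial wall has an inner endothelial layer, a media of smooth muscle with elastic fibres and collagen, and an outer adventitia of fibroblasts, collagen and nerves.

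The libraries held markers of all wall layers, and also RNA of neighbouring tissue. The smooth muscle myosin Myh11 had a median normalized value of 3663 in ieCre and 2988 in ieET-1, the endothelial adhesion gene Pecam1 1352 and 1338, and the fibroblast receptor Pdgfra 286 and 277. Normalized values are read numbers scaled by an effective size of each library, which puts them near CPM. Summed over 18 pancreatic acinar genes, the value ran from 141 to 39676 in ieCre and from 1424 to 29078 in ieET-1, with overlapping groups. Summed over 16 adrenal cortex genes it ran from 116 to 732 in ieCre and from 66.2 to 167 in ieET-1. None of the 16 genes was at 0 in all 12 libraries. Over the steroid synthesis genes Star, Cyp11a1, Cyp11b1, Cyp21a1 and Hsd3b1 alone, the sum ran from 32.7 to 563 in ieCre. In ieET-1 it ran from 2.68 (mouse 256) to 73.0 (mouse 8987). At the low end, the sum over 16 genes thus came almost wholly from other genes of the list. Totals ran from 10017394 to 16046209 reads. The ribosomal-RNA-overlapping gene Gm42418 took 26.6% of reads in ieCre mouse 9955 and at most 1.42% in the other 11 short-term libraries. In bulk tissue, fewer cells of a type and less RNA per cell cannot be told apart.

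An adrenal cortex score, the mean log2(value + 1) of the steroid synthesis genes Star, Cyp11a1, Cyp11b1, Cyp21a1 and Hsd3b1, was used to follow that neighbouring tissue. In ieCre it was 5.28, 5.62, 6.70, 2.85, 6.66 and 5.81 (mice 8, 10, 8754, 9955, 9957 and 9958). In ieET-1 it was 0.56, 0.44, 0.47, 3.80, 1.01 and 3.80 (mice 256, 257, 258, 8987, 8991 and 8992). Mouse 9955 was thus the only ieCre library below any ieET-1 library. Score and genotype overlapped so little that adding the score to the model raised the standard error of the genotype difference 1.52 times.

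In the comparison without the score, 12 genes passed (0.0825% of those tested; limma, Benjamini-Hochberg adjusted p under 0.05), 2 higher and 10 lower in ieET-1. Of these, 6 were steroid synthesis genes, namely the 5 of the score and the aldosterone synthase Cyp11b2. To see which of the others moved with the adrenal signal, the slope of each gene on the score within the 4 groups of all 24 libraries was tested. The slope passed for 14 genes (0.0963% of those tested, limma), of which 5 were the score's own genes. The remaining 9 were Srd5a2, a steroid 5-alpha reductase, Hao2, a hydroxyacid oxidase, Mgarp, a mitochondrial protein of steroidogenic cells, Trank1, the aldo-keto reductases Akr1b7 and Akr1cl, the steroidogenic transcription factor Nr5a1, Klhdc8a, and the corticotropin receptor Mc2r.

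Trank1 and Klhdc8a were thus on both lists. Trank1 ran from 0.892 through a median of 3.82 to 11.2 in ieCre and from 0.0744 through 0.245 to 1.13 in ieET-1. The ieET-1 values lay low, and 4 of the 6 were below the lowest ieCre library, mouse 9955 (log2 -1.78, SE 0.31, limma adjusted p = 0.0164). Its slope was 0.39 log2 units for each unit of the score (SE 0.05, limma adjusted p = 0.000393), and with the score as a term its difference was -0.30 and did not pass. The kelch-domain gene Klhdc8a ran from 2.08 through a median of 4.56 to 7.32 in ieCre and from 0.521 through 1.22 to 1.98 in ieET-1. The groups did not overlap (log2 -1.30, SE 0.22, limma adjusted p = 0.0164), and of all genes 0.399% had every ieET-1 value below every ieCre value. The Klhdc8a slope was 0.24 (SE 0.05, limma adjusted p = 0.0319) and its difference with the score was -0.41, which did not pass.

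Cyp11b2 had a slope of 0.23 that did not pass (limma adjusted p = 0.623). The other 4 calls had slopes between -0.00843 and 0.0406. Ssbp4, which encodes a protein of the single-stranded DNA binding family, ran from 21.3 through a median of 24.5 to 29.9 in ieCre and from 13 through 17.4 to 18 in ieET-1. All 6 ieET-1 libraries were below all ieCre libraries (log2 -0.55, SE 0.10, limma adjusted p = 0.0164). With the score its difference was -0.59 (unadjusted p = 0.000821, limma adjusted p = 0.983). Means were 25 and 15.9 in mice with IDs of 1 to 3 digits and 25 and 17.6 in mice with 4-digit IDs, ieCre first. Differences in the range of 1 to 3 digits rest on few mice, ieCre 8 and 10 and ieET-1 256, 257 and 258. Khdrbs3, the RNA-binding splicing regulator named in the series title, ran from 38 through a median of 49 to 54.7 in ieCre and from 71.2 through 82.5 to 91.2 in ieET-1. The groups stood apart (log2 0.77, SE 0.08, limma adjusted p = 3.82e-05), and Khdrbs3 was the only gene that passed with the score as a term (1 gene, 0.00688% of those tested; log2 0.93, SE 0.13, limma adjusted p = 0.00213). With the score and without mouse 9955, no gene passed by limma, and 346 genes had an unadjusted p under 0.05. Within ID ranges the Khdrbs3 means were 50.1 and 83.7 in mice with IDs of 1 to 3 digits and 46.3 and 80.1 in mice with 4-digit IDs, ieCre first. Rpl3-ps1 is a pseudogene copied from Rpl3, a ribosomal protein gene, and can share its reads. Its values ran from 0.807 through a median of 1.24 to 1.95 in ieCre and from 5.99 through 10.5 to 17 in ieET-1. It was higher in all 6 ieET-1 libraries (log2 2.36, SE 0.41, limma adjusted p = 0.0164), with a difference of 2.35 once the score was added, which did not pass. The unnamed gene ENSMUSG00000095742 had means of 26.8 ± 4.84 over the ieCre mice and 12.9 ± 3.45 over the ieET-1 mice (SD, n = 6 each), a call (log2 -1.02, SE 0.20, limma adjusted p = 0.0432) that went to -0.90 and did not pass with the score. Over the fits that left out each of the 12 mice, the Ssbp4 call was lost in 6, that of Trank1 in 6, of Klhdc8a in 4, of Rpl3-ps1 in 5, of ENSMUSG00000095742 in 11 and of Khdrbs3 in 0. The calls of the 6 steroid synthesis genes were lost in 5 (Cyp21a1) to 9 (Hsd3b1, Cyp11a1 and Cyp11b2) of these fits.

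**Figure D1:**
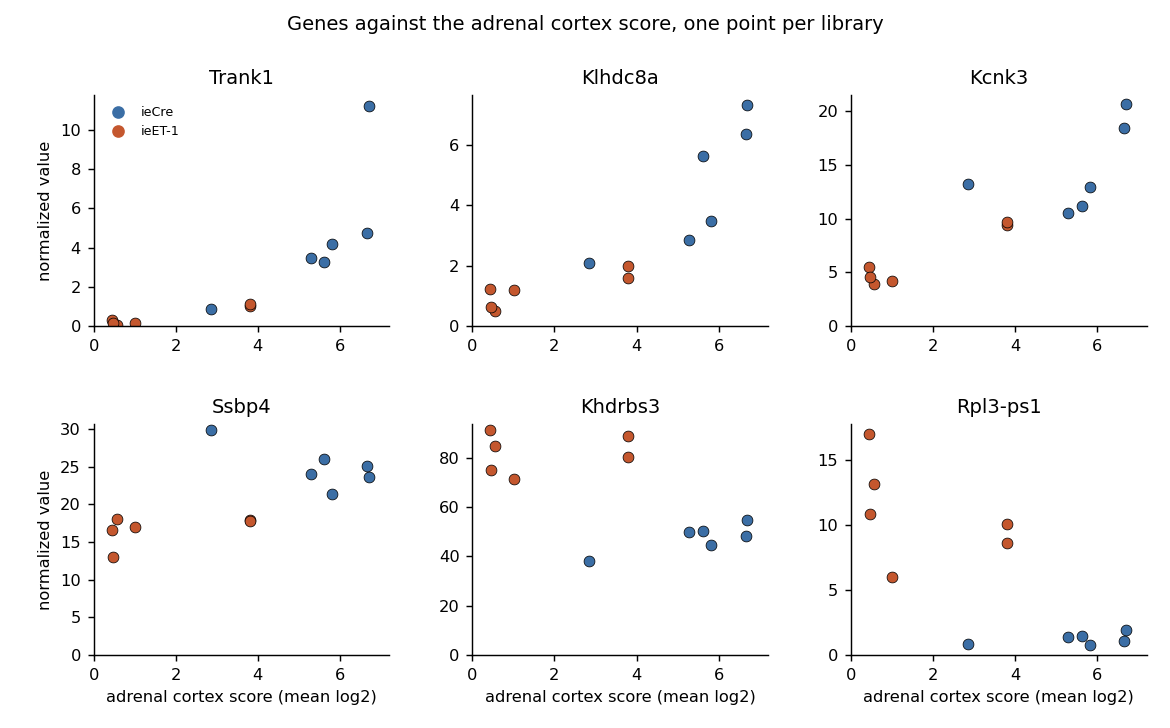
Normalized value of 6 genes (y axis) against the adrenal cortex score of the same library (x axis, mean log2(value + 1) of 5 steroid synthesis genes). Each point is 1 of 12 libraries, blue for ieCre and orange for ieET-1. Trank1 and Klhdc8a of ieCre mouse 9955 (score 2.85) lie close to those of the 2 ieET-1 mice at 3.80, whereas Kcnk3, Ssbp4, Khdrbs3 and Rpl3-ps1 are apart between these mice too. That contrast rests on 1 ieCre library, and the groups did not overlap for Klhdc8a either. With the score as a term, the log2 difference of Kcnk3 went from -1.13 to -0.47 and that of Klhdc8a from -1.30 to -0.41.

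Beside the 5 genes of the score, the 10 protein-coding genes with the smallest p among the lower ones held further adrenal genes. After Klhdc8a, Trank1, Ssbp4 and Cyp11b2, which passed, came 6 that did not, namely the potassium channel Kcnk3, Hao2, the thyroglobulin gene Tg, Akr1b7, Srd5a2 and Nr5a1, with limma adjusted p from 0.0531 to 0.0675. With the score as a term Hao2 was at 0.08, Akr1b7 at -0.08, Srd5a2 at 0.26 and Nr5a1 at -0.14 log2 units. Kcnk3, which sets the resting potential of smooth muscle and of the adrenal cortex, ran from 10.5 through a median of 13.1 to 20.7 in ieCre and from 3.94 through 5.05 to 9.63 in ieET-1. All 6 ieET-1 values were below all ieCre values (log2 -1.13, SE 0.23, limma adjusted p = 0.0531), and with the score the difference was -0.47 (unadjusted p = 0.138). Tg, the thyroid hormone precursor, ran from 6.73 through a median of 10.8 to 13.7 in ieCre and from 2.8 through 3.47 to 6.31 in ieET-1. Its groups did not overlap (log2 -1.23, SE 0.26, limma adjusted p = 0.0675), and it kept a difference of -1.03 with the score (unadjusted p = 0.0159), with a slope on the score of 0.05.

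The upstream sequence of Akr1b7 is shown because it holds the half-site AAGGTCA that Nr5a1 recognises. It is the stretch of 250 bases before the start of the gene, whose product clears aldehydes made during steroid synthesis (RefSeq, GRCm38.p6, chr6:34412112-34412361, plus strand), with the half-site, here on the reverse strand as TGACCTT, in capitals.
Akr1b7: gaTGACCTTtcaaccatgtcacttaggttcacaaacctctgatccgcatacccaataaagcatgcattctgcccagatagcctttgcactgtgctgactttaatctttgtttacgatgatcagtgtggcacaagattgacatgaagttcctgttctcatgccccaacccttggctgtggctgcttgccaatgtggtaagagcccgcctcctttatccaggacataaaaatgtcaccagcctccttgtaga
Among the 7 adrenal cortex genes with a sequence in the RefSeq table, 1 held AAGGTCA or TGACCTT in those 250 bases. Over all 27025 genes of the table, 4.05% did.

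Among the genes higher in ieET-1, none beyond Khdrbs3 and Rpl3-ps1 passed. The nearest was Ly6c2, a surface antigen of monocytes and some endothelial cells, which ran from 0.297 through a median of 0.791 to 1.24 in ieCre and from 2.41 through 3.84 to 4.47 in ieET-1. Each ieET-1 library exceeded each ieCre library (log2 1.39, SE 0.30, limma adjusted p = 0.0675), as was so for 0.364% of genes, and the value with the score was 1.20. The other 8 protein-coding genes with the smallest p were Aasdhppt (0.40), the histamine methyltransferase Hnmt (0.47), Kitl, the ligand of the Kit receptor (0.36), the Golgi calcium pump Atp2c1 (0.26), the zinc finger gene Zfp638 (0.34), the kinase Map3k2 (0.28), the mitochondrial carrier Slc25a40 (0.36) and Dcun1d4 (0.33), all log2 differences with limma adjusted p of 0.245 to 0.297. Kitl ran from 77.7 through a median of 88.4 to 101 in ieCre and from 102 through 116 to 125 in ieET-1, and Atp2c1 from 101 through a median of 109 to 118 in ieCre and from 123 through 131 to 136 in ieET-1. Neither overlapped between groups. With the score these 8 genes kept positive differences, from 0.19 (Map3k2) to 0.51 (Kitl).

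At an unadjusted p under 0.05, 771 genes (5.30% of those tested) were lower in ieET-1 and 670 (4.61%) were higher. These percentages are the background for the lists that follow. The median log2 difference over all genes was -0.01, and 52.3% of all genes lay below 0.

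By wall layer, most genes of the media had lower values in ieET-1 without passing the test, and the groups overlapped in each layer. The level of a list is its mean log2(value + 1) in a library. Over 22 genes of contractile smooth muscle it ran from 8.54 through a median of 8.84 to 8.95 in ieCre and from 8.33 through 8.51 to 8.94 in ieET-1. The groups overlapped, with 3 ieET-1 libraries below the lowest ieCre library and mouse 8992 near the top of the ieCre range. Of the 22 genes, 21 were lower in ieET-1, 4 of them at an unadjusted p under 0.05, with a median of -0.24. The lowest p was that of Ppp1r14a, an inhibitor of myosin phosphatase that sensitises contraction to calcium. It ran from 84.2 through a median of 92.7 to 119 in ieCre and from 54.1 through 63 to 80.4 in ieET-1, without overlap between the groups (log2 -0.60, SE 0.16, limma adjusted p = 0.295), and was at -0.45 with the score. Tagln, an actin-binding protein, had means of 3569 ± 713 over the ieCre mice and 2680.4 ± 580.2 over the ieET-1 mice (SD, n = 6 each; -0.42, adjusted p = 0.49 by limma), and the thin-filament nucleator Lmod1 317 ± 94.1 over the ieCre mice and 218 ± 54 over the ieET-1 mice (-0.52, adjusted p = 0.49 by limma). With the score the median of the list was -0.14, 17 of 22 genes lay lower (52.4% of all genes did), and 0 had an unadjusted p under 0.05 in either direction. With the score and without mouse 9955 the median was -0.06, with 15 of 22 lower (49.2% of all genes were). Within ID ranges the level differed by -0.11 (1 to 3 digits) and -0.32 (4 digits).

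The actin-sensing factors MRTF and SRF drive smooth muscle and cytoskeletal genes. Their 26 targets had a median of -0.20, with 23 lower and 4 of these at an unadjusted p under 0.05. With the score the median was -0.14, with 20 of 26 lower (52.4% of all genes were) and 0 at that threshold. With the score and without mouse 9955 it was -0.0036, with 14 of 26 lower (49.2% of all genes were). The level differed by -0.06 (1 to 3 digits) and -0.26 (4 digits) within ID ranges. Srf itself ran from 41.5 through a median of 44.2 to 56.5 in ieCre and from 29.1 through 34 to 48 in ieET-1. It was lower than any ieCre library in 5 of 6 ieET-1 libraries (log2 -0.36, SE 0.15, limma adjusted p = 0.485). The focal adhesion genes Tln1 (-0.60) and Ilk (-0.25) were the next by p, and neither passed. The sequences before the starts of Myl9, a myosin light chain of smooth muscle, and of Srf are shown because they hold the CArG box that SRF binds, in capitals (RefSeq, GRCm38.p6; Myl9 chr2:156775214-156775463, plus strand; Srf chr17:46556163-46556412, minus strand).
Myl9: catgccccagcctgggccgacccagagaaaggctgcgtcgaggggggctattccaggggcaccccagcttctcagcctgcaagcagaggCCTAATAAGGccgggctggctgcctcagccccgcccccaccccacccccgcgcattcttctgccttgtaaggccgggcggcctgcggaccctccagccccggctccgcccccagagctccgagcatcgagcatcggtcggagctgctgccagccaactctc
Srf: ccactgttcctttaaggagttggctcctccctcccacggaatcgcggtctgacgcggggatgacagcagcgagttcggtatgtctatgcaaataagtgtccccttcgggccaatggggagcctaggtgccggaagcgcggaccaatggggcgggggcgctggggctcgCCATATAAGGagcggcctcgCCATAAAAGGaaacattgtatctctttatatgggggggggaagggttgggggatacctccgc
A CArG box was found in these 250 bases for 6 of the 20 MRTF and SRF targets with a sequence (Actg1, Fhl1, Fhl2, Lima1, Srf and Vcl), for 1 of 18 contractile genes (Myl9), and for 1.40% of all 27025 genes. Myl9 had a median value of 2826 in ieCre and 2772 in ieET-1, with overlapping groups.

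Ion channels of smooth muscle were mixed. Of 33 calcium and potassium channel genes, 23 were lower and 10 higher, with a median of -0.17, and 4 lower and 1 higher had an unadjusted p under 0.05. Besides Kcnk3 these included the T-type calcium channel Cacna1g, at 29.2 ± 7.22 over the ieCre mice and 20.7 ± 2.09 over the ieET-1 mice (SD, n = 6 each; log2 -0.45), and the receptor-operated channel Trpc6, at 13.7 ± 2.92 over the ieCre mice and 18.1 ± 3.13 over the ieET-1 mice (log2 0.38). Their limma adjusted p were 0.48 and 0.451. With the score the median of the channel list was -0.16, with 23 of 33 lower (52.4% of all genes were). With the score and without mouse 9955 it was 0.07, a change of sign, with 13 of 33 lower (49.2% of all genes were).

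In the endothelium list, 20 of 25 genes were lower and 5 higher, with a median of -0.12. Its level ran from 6.18 through a median of 6.45 to 6.68 in ieCre and from 5.98 through 6.36 to 6.43 in ieET-1, with overlapping groups. At an unadjusted p under 0.05 there were 0 lower genes and 1 higher, Bmx, a tyrosine kinase of arterial endothelium, which had means of 116 ± 9.4 over the ieCre mice and 139 ± 20.6 over the ieET-1 mice (SD, n = 6 each; log2 0.25, limma adjusted p = 0.502). The level of the endothelium list differed by -0.00357 (1 to 3 digits) and -0.14 (4 digits) within ID ranges. The transcription factor Sox18 (-0.43) and the receptor Tie1 (-0.30) came next and did not pass. The median of the list was 0.03 with the score, a change of sign, and 0.16 with the score and without mouse 9955.

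None of the 7 tested genes of the endothelin system passed. Mouse Edn1, which differs from the human transgene and so checks the genotype only in part, ran from 28.9 through a median of 36.1 to 45.3 in ieCre and from 36.7 through 46.7 to 48.1 in ieET-1. The upper 4 ieET-1 libraries exceeded every ieCre library (log2 0.29, SE 0.12, limma adjusted p = 0.486). Mme, the membrane protease neprilysin that degrades endothelin-1 among other peptides, ran from 10.1 through a median of 12.2 to 14 in ieCre and from 14.1 through 16.1 to 23.6 in ieET-1, with no overlap (log2 0.40, SE 0.17, limma adjusted p = 0.49). The converting enzyme Ece1 was at -0.38, the receptor Ednra (ETA) at -0.06 and Ednrb (ETB) at 0.19 log2 units, and none of them passed. Vegfa, also named in the series title, was at -0.12 (adjusted p = 0.712 by limma) and at 0.00 with the score.

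In the outer wall, 14 of 20 adventitial fibroblast genes were lower, with a median of -0.06, 4 lower and 1 higher at an unadjusted p under 0.05. The level ran from 7.90 through a median of 8.10 to 8.20 in ieCre and from 7.88 through 7.98 to 8.05 in ieET-1, with overlapping groups. Cd248, a glycoprotein of stromal cells, had means of 37.9 ± 12.9 over the ieCre mice and 21.8 ± 7.3 over the ieET-1 mice (SD, n = 6 each; log2 -0.76, limma adjusted p = 0.451), Pi16, a marker of adventitial progenitor-like fibroblasts, was at -0.34, and the cell adhesion gene Opcml was at 0.35. Among 10 pericyte genes, 8 were lower, with a median of -0.18. Rgs5, which damps G protein signalling in pericytes and arterial smooth muscle, went the other way and ran from 164 through a median of 541 to 978 in ieCre and from 518 through 996 to 1390.0 in ieET-1. The groups overlapped, with 3 ieET-1 libraries above the highest ieCre library (log2 1.02, SE 0.32, limma adjusted p = 0.441). The proteoglycan Cspg4 was at -0.62 and Ndufa4l2 at -0.43. Schwann cell genes had a median of -0.02 over 11 genes, with the cadherin Cdh19 at 0.51, the myelin gene Prx at -0.33 and the glial factor Sox10 at -0.44, none of which passed.

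**Figure D2:**
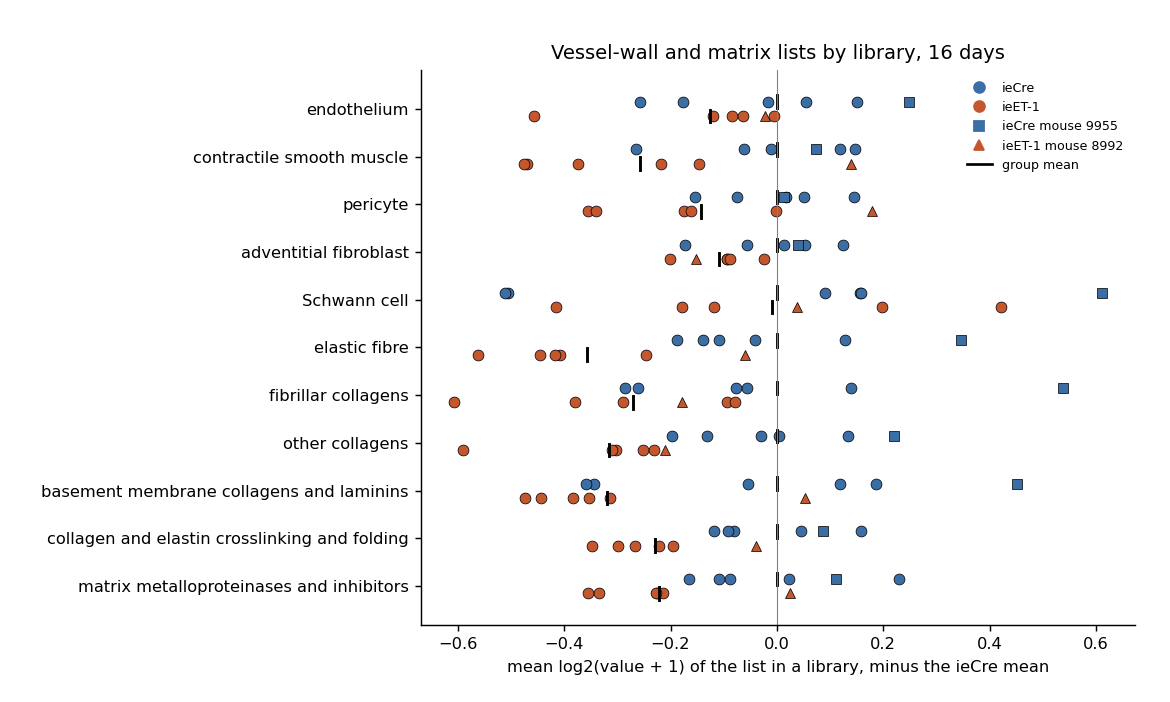
Level of 11 wall-layer and matrix lists in each of the 12 libraries (x axis, mean log2(value + 1) of the list minus its ieCre mean; y axis, the lists). Points are libraries, blue for ieCre and orange for ieET-1, with ieCre mouse 9955 as a square, ieET-1 mouse 8992 as a triangle and group means as black ticks. The list of other collagens is the one in which no ieET-1 library reached an ieCre library, and in most matrix lists mouse 9955 is the highest ieCre or mouse 8992 the highest ieET-1 library.

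Among the wall-layer and matrix lists, elastic fibre genes had the largest share of members lower in ieET-1 at an unadjusted p under 0.05. Elastic fibres are built from elastin on a scaffold of fibrillin microfibrils and give arteries recoil. Of 17 elastic fibre genes, 16 were lower and 9 had an unadjusted p under 0.05 and were lower, against the background of 5.30%, with a median of -0.38. The level of the list ran from 6.65 through a median of 6.76 to 7.18 in ieCre and from 6.27 through 6.42 to 6.77 in ieET-1. In 5 of 6 ieET-1 libraries the level was below the lowest ieCre library, and mouse 8992 was the exception. No gene of the list passed over all genes. Elastin itself, Eln, ran from 361 through a median of 425 to 853 in ieCre and from 177 through 269 to 429.9 in ieET-1. The highest ieCre library was mouse 9955, and 5 of 6 ieET-1 libraries were below the lowest ieCre library (log2 -0.76, SE 0.27, limma adjusted p = 0.461). The microfibril-associated Mfap4 ran from 166 through a median of 257 to 282 in ieCre and from 138 through 171 to 186 in ieET-1, with overlap (log2 -0.50, SE 0.14, limma adjusted p = 0.297). Emilin1, which links elastin to microfibrils, ran from 88.2 through a median of 136 to 172 in ieCre and from 68.2 through 81.9 to 131 in ieET-1, with mouse 8992 alone inside the ieCre range (log2 -0.59, SE 0.20, limma adjusted p = 0.451). Fibrillin-1, Fbn1, had means of 1303 ± 162 over the ieCre mice and 1002 ± 149 over the ieET-1 mice (SD, n = 6 each; log2 -0.38, limma adjusted p = 0.461). Within ID ranges the level of the list differed by -0.22 (1 to 3 digits) and -0.42 (4 digits).

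**Figure D3:**
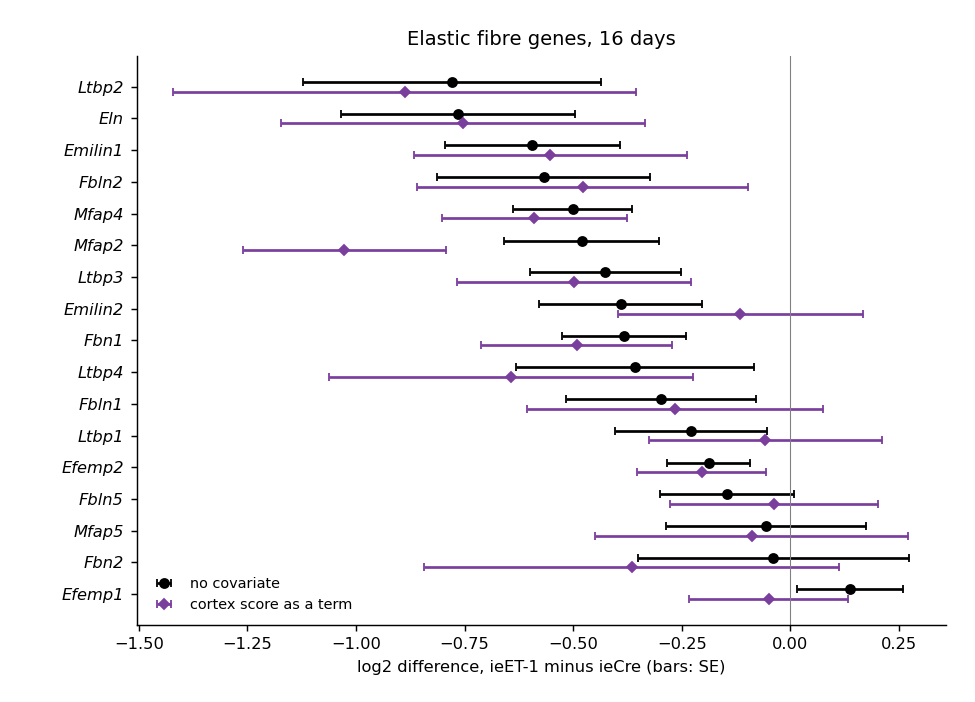
Log2 difference between ieET-1 and ieCre for the 17 elastic fibre genes (x axis, bars are standard errors; y axis, genes), from the model without a covariate (black circles) and with the adrenal cortex score as a term (purple diamonds). Without the score 16 of 17 genes lie below 0, and with it all 17, with wider bars.

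Collagen genes lay on the same side, again without a call. Fibrillar collagens, the tensile fibres of the wall, had a median of -0.31 over 9 genes, 8 of them lower and 1 at an unadjusted p under 0.05. That was Col5a1, which starts fibril assembly and ran from 272 through a median of 369 to 533 in ieCre and from 188 through 269.6 to 343 in ieET-1. Only the highest ieET-1 library reached the ieCre range (log2 -0.54, SE 0.19, limma adjusted p = 0.461). The main fibril chain Col1a2 ran from 2015 through a median of 2248 to 3326 in ieCre and from 1244 through 1859.5 to 2396 in ieET-1, with overlap (-0.45, adjusted p = 0.505 by limma), and Col5a3 was at -0.36. The level of the fibrillar list differed by -0.10 (1 to 3 digits) and -0.37 (4 digits) within ID ranges. The 17 other collagens, of beaded filaments, fibril surfaces and membranes, were all lower, 6 of them at an unadjusted p under 0.05, with a median of -0.28. The level of that list ran from 5.63 through a median of 5.82 to 6.05 in ieCre and from 5.24 through 5.55 to 5.62 in ieET-1. It did not overlap between groups. The membrane collagen Col13a1 ran from 20.9 through a median of 28.1 to 44.4 in ieCre and from 9.39 through 18 to 26.3 in ieET-1, and the beaded-filament chain Col6a1 from 519.7 through a median of 790.1 to 918 in ieCre and from 405 through 506 to 700.4 in ieET-1. In both, most ieET-1 libraries were below every ieCre library (-0.70 and -0.55 log2 units), and neither passed (limma adjusted p = 0.451 each). Col16a1 was at -0.43.

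Of 23 basement membrane genes, the collagen IV and laminin sheet under endothelium and around muscle cells, 21 were lower and 7 of these had an unadjusted p under 0.05, with a median of -0.31. Col4a1 ran from 882 through a median of 1411 to 2018 in ieCre and from 600.4 through 764 to 1486 in ieET-1, with the value of mouse 8992 far above the other ieET-1 libraries (log2 -0.67, SE 0.27, limma adjusted p = 0.48). Its partner Col4a2 was at -0.70 and Col15a1 at -0.52. Within ID ranges the level of the basement membrane list differed by -0.04 (1 to 3 digits) and -0.42 (4 digits). The enzymes that fold and crosslink collagen and elastin had, among the wall-layer and matrix lists, the most members past an unadjusted p of 0.05, 11 of 26, all lower, with a median of -0.29. Loxl1, the lysyl oxidase-like crosslinker of elastin, ran from 102 through a median of 121 to 182 in ieCre and from 72 through 89.1 to 126 in ieET-1. All but 1 of the ieET-1 libraries were below the ieCre range (log2 -0.51, SE 0.17, limma adjusted p = 0.451). The collagen prolyl hydroxylase P3h1 was at -0.40 and the procollagen protease Bmp1 at -0.35. P4hb, a subunit of collagen prolyl 4-hydroxylase picked after its values were seen, ran from 249 through a median of 273 to 296 in ieCre and from 195 through 225 to 247 in ieET-1, without overlap (log2 -0.28, SE 0.13, limma adjusted p = 0.49). Matrix proteases and their inhibitors lay lower as well, 15 of 17, with 3 at an unadjusted p under 0.05 and a median of -0.30. The gelatinase Mmp2 ran from 253 through a median of 293 to 410.2 in ieCre and from 215 through 238 to 278 in ieET-1 (log2 -0.37, SE 0.15, limma adjusted p = 0.477), its activator Mmp14 was at -0.41 and Mmp23 at -0.24.

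How much of the matrix difference remained beside the adrenal signal was asked with the score as a term. At an unadjusted p under 0.05, 291 genes (2.0%) were then lower and 277 (1.90%) higher. Fibrillar collagens had a median of -0.63 with 4 of 9 lower at that threshold, and other collagens -0.42 with 1 of 17. Elastic fibre genes had -0.48 with 3 of 17, and crosslinking and folding enzymes -0.27 with 2 of 26. Basement membrane genes were at -0.25 and matrix proteases at -0.13, each with 1 gene lower at that threshold. These values rest partly on mouse 9955, the one ieCre library with a low score, which was also the highest ieCre library for Eln. With the score and without that mouse, the medians were -0.44 (fibrillar collagens), -0.23 (other collagens), -0.20 (crosslinking and folding), -0.09 (elastic fibre) and 0.07 (basement membrane), the last with a change of sign. At an unadjusted p under 0.05, that fit had 208 lower genes (1.43% of those tested), among them 1 of 9 fibrillar collagens, 0 of 17 other collagens, 0 of 26 crosslinking and folding enzymes and 1 of 17 elastic fibre genes. Without a threshold, 6 of 9, 14 of 17, 22 of 26 and 11 of 17 of these lists lay lower, where 49.2% of all genes did. Basement membrane genes lay lower in 9 of 23 and matrix proteases in 9 of 17, the latter with a median of -0.04. Neither of these 2 lists had a gene lower at an unadjusted p under 0.05. Cytosolic ribosomal protein genes, a list outside the wall, had a median of -0.20 in the same fit, with 47 of 50 lower. Further lists that are not matrix lay as low there. They were cell cycle (-0.65, 20 of 22 lower), chemokine and cytokine (-0.41, 16 of 24) and macrophage genes (-0.34, 14 of 16). White adipocyte (0.59, 1 of 17 lower) and erythroid genes (1.41, 0 of 5) lay on the other side. Without mouse 9955 and without the score, elastic fibre genes had a median of -0.29, with 15 of 17 lower and 5 at an unadjusted p under 0.05.

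**Figure D4:**
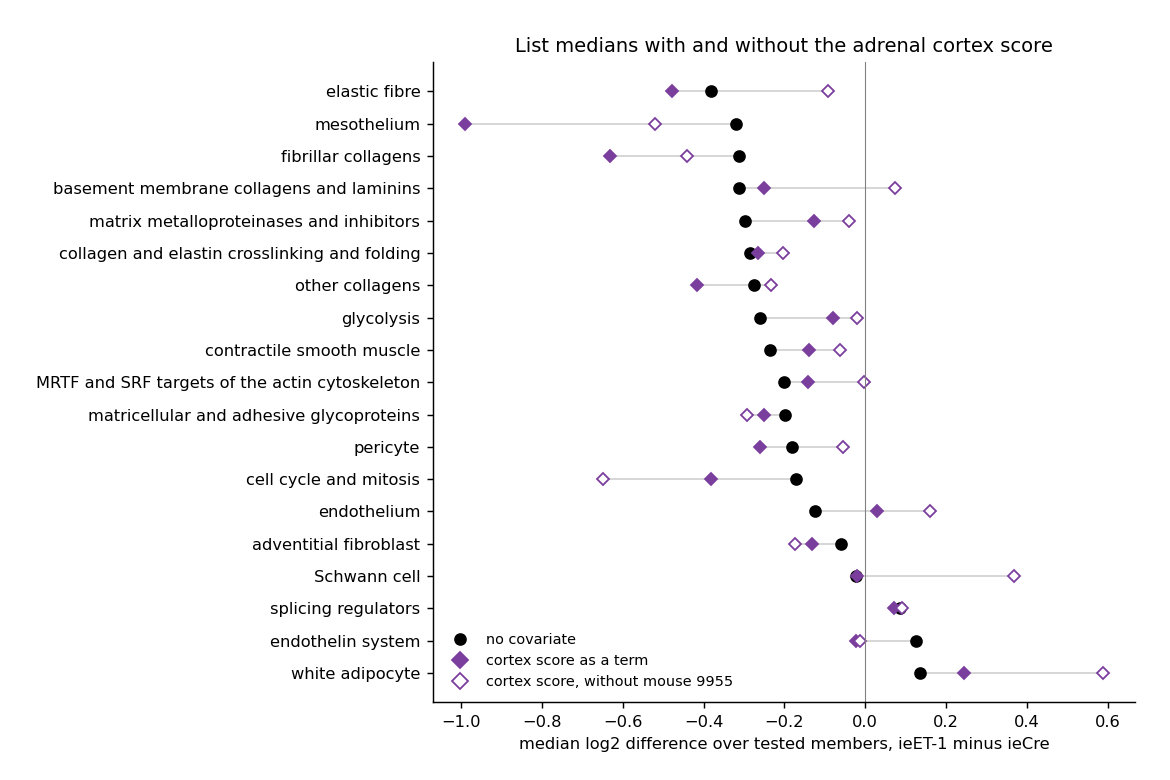
Median log2 difference between ieET-1 and ieCre over the tested members of 19 lists (x axis; y axis, the lists), from the model without a covariate (black circles), with the adrenal cortex score (filled diamonds), and with the score and without ieCre mouse 9955 (open diamonds). The open diamonds of fibrillar collagens and of crosslinking and folding enzymes stay below 0, at -0.44 and -0.20, whereas elastic fibre genes go from -0.38 through -0.48 to -0.09. Staying below 0 was not particular to these lists. Open diamonds also lie at -0.65 (cell cycle), -0.52 (mesothelium), -0.29 (matricellular glycoproteins) and -0.23 (other collagens), and at 0.59 for white adipocyte genes.

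The genes with the smallest p in the model with the score included Mfap2 of the elastic fibre list. Apart from Khdrbs3 none of them passed (adjusted p = 0.983 by limma for each). The lower ones were Mfap2, a microfibril glycoprotein (-1.03), Scand1 (-1.28), the heparin-binding growth factor Mdk (-0.82), Ssbp4, the zinc finger genes Zfp13 (-0.57), Zfp524 (-0.53), Zfp579 (-0.98) and Zfp771 (-0.74), Ankrd35 (-0.75) and Ccdc85b (-0.80). Mdk ran from 6.46 through a median of 7.01 to 7.73 in ieCre and from 3.96 through 5.33 to 6.26 in ieET-1. Its groups did not overlap, and its difference without the score was -0.41. Scand1 ran from 4.64 through a median of 7.22 to 9.72 in ieCre and from 2.27 through 3.04 to 4.46 in ieET-1, also without overlap (log2 -0.93, SE 0.21, limma adjusted p = 0.0952 without the score). The higher ones after Khdrbs3 were Tmem65 (0.40), the retinol-binding Rbp7 (0.83), the helicase Ddx20 (0.54), Kitl (0.51), Dbndd2 (0.60), the fatty acid transporter Cd36 (0.91), Zfp932 (0.39), the protein kinase A subunit Prkar2b (0.65) and Cep76 (0.51). Cd36, which capillary endothelium and adipocytes use to take up fatty acids, ran from 271 through a median of 375 to 474 in ieCre and from 456 through 547 to 737 in ieET-1 (0.58 without the score). Mouse 9955 had the highest ieCre value of Mfap2, Zfp13, Ankrd35 and Zfp579 and the lowest of Ddx20. With the score and without that mouse, the differences were -0.88 (Mfap2), -0.48 (Zfp13), -0.61 (Ankrd35), -0.56 (Zfp579) and 0.27 (Ddx20), with an unadjusted p of 0.0644 for Zfp579 and 0.0886 for Ddx20. Ccdc85b went to -0.50 and Zfp932 to 0.25 in that fit.

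Genes were also grouped by the letters of their symbols into 239 families of at least 8 tested members, ranked by the median log2 difference. The 5 lowest families were the metalloproteinases Mmp (-0.32 over 13 genes), the histones Hist (-0.31 over 42), the collagens Col (-0.30 over 35), the Wnt receptors Fzd (-0.27 over 8) and the lipoprotein receptor relatives Lrp (-0.26 over 10). Of the 42 histone genes, 39 were lower, 8 of them at an unadjusted p under 0.05. Hist1h4h, a histone H4 gene picked after its values were seen, ran from 47.3 through a median of 52.9 to 66.3 in ieCre and from 35.7 through 40.4 to 45.2 in ieET-1, without overlap (log2 -0.46, SE 0.10, limma adjusted p = 0.0895), and Hist2h2ac had means of 13.5 ± 2.24 over the ieCre mice and 9.02 ± 0.261 over the ieET-1 mice (SD, n = 6 each; log2 -0.52). Near-identical histone genes can share reads. Histones were the lowest family with the score (-0.52, rank 1) and had a median of -0.38 without mouse 9955. At 3 months the histone median was -0.33, so this difference was not particular to 16 days. Of the 35 Col genes, 33 were lower and 12 of these had an unadjusted p under 0.05, and the family was at -0.43 (rank 2) with the score. The other low families moved towards 0 with the score. Mmp was then at -0.15 (rank 25 of 239), Fzd at -0.07 (rank 66, with 4 of 8 genes lower) and Lrp at -0.21 (rank 8).

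The 5 highest families were the chemokines Ccl (0.25 over 12 genes), the proteasome subunits Psma (0.20 over 8), Ms, which holds the Ms4a membrane proteins of leukocytes (0.18 over 9), the lectins Clec (0.18 over 18) and the carbonic anhydrases Car (0.17 over 9). Of their 56 genes, 2 were higher and 2 lower at an unadjusted p under 0.05, so the higher share was below the 4.61% of all genes. With the score, Psma was at 0.28, the highest of the 239, while Ccl was at 0.05 and Ms at -0.18. The direction of each of these 10 families was the same after quantile normalization.

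**Figure D5:**
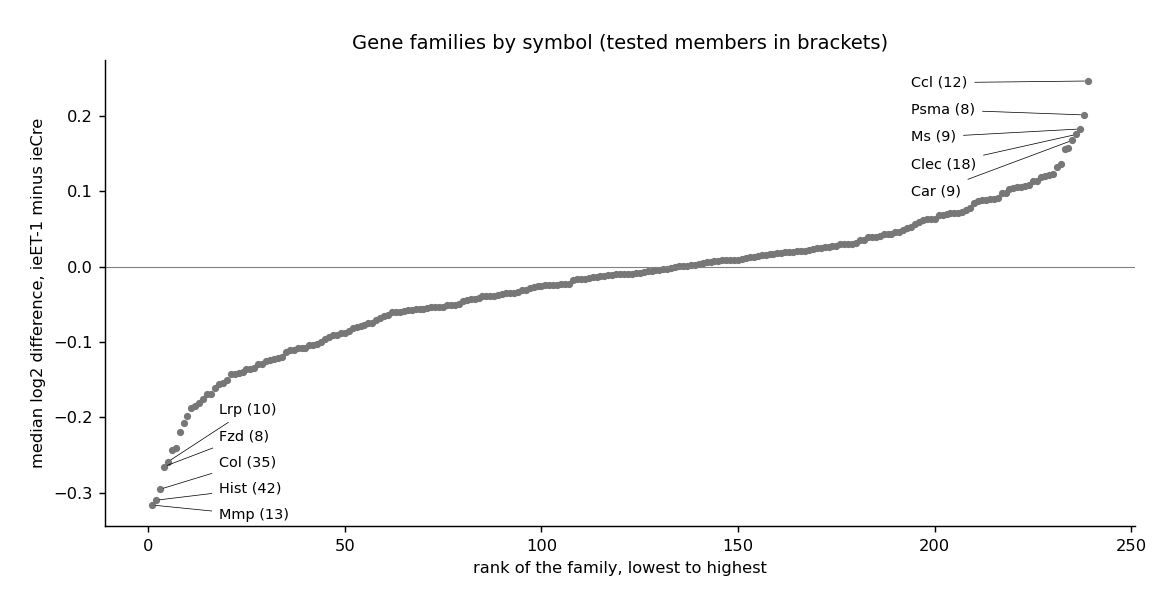
Median log2 difference between ieET-1 and ieCre (y axis) of 239 gene families by symbol, in order of rank (x axis). Each point is a family, and the 5 at each end are named with the number of tested members. The lowest are Mmp, Hist and Col, near -0.30, and the highest is Ccl at 0.25.

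Among processes not tied to a wall layer, 14 of 17 glycolysis genes were lower, 5 of these at an unadjusted p under 0.05, with a median of -0.26, and Aldoa (-0.38), Eno1 (-0.52) and Pkm (-0.32) had the smallest p. With the score the glycolysis median was -0.08 and 0 genes were lower at that threshold. Cell cycle genes had 21 of 22 lower, with a median of -0.17, but only Cdc20 (-0.61) and Mcm2 (-0.32) had an unadjusted p under 0.05, with Mcm3 at -0.30. Their level differed by -0.73 in mice with IDs of 1 to 3 digits and by 0.12 in mice with 4-digit IDs, a change of direction. Splicing regulators had 26 of 40 higher, with a median of 0.09, and besides Khdrbs3 the serine-arginine factors Srsf10 (0.30) and Srsf1 (0.17) had the smallest p. White adipocyte genes had a median of 0.14, with the fatty acid binding protein Fabp4 at 0.44, the receptor Acvr1c at 0.46 and the glucose transporter Slc2a4 at -0.31. Mesothelial genes, from the covering of the mesentery, were lower in 12 of 12, with a median of -0.32, 0 at an unadjusted p under 0.05, and Bnc1 (-0.43), Upk3b (-0.56) and Wt1 (-0.35) the smallest p. The level of the mesothelial list ran from 1.98 through a median of 2.78 to 3.56 in ieCre and from 2.22 through 2.36 to 3.05 in ieET-1, with overlap. With the score, cell cycle genes had a median of -0.38, mesothelial genes -0.99 and white adipocyte genes 0.25. The mesothelial median was then the lowest of the 50 ranked lists. Of the 12 mesothelial genes, 4 were lower at an unadjusted p under 0.05 (limma), as were 2.0% of all genes. With the score and without mouse 9955 the 3 medians were -0.65, -0.52 and 0.59, and 0 of 12 mesothelial genes were lower at that threshold. A fit with 5 tissue scores as terms held adrenal cortex, chromaffin, acinar, adipocyte and B cell scores together. Matrix medians in it were -0.42 (fibrillar collagens), -0.36 (other collagens), -0.32 (elastic fibre), -0.26 (crosslinking and folding) and -0.18 (basement membrane). It had no mesothelial or cell cycle term, and the part of each single tissue in the matrix differences was not tested.

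Whether these differences were particular to 16 days was tested against the same contrast at 3 months. No gene passed that interaction (0 of 14544, smallest limma adjusted p = 0.752), and 731 genes had an unadjusted p under 0.05, with the 16-day difference the lower one in 399 (2.74% of those tested). At 3 months the median log2 difference was 0.05 for elastic fibre genes, 0.04 for contractile genes, -0.03 for other collagens, -0.18 for fibrillar collagens and -0.05 for crosslinking and folding enzymes. An unadjusted interaction p under 0.05, with the 16-day difference the lower one, was found for 3 of 17 elastic fibre, 5 of 17 other collagen, 5 of 23 basement membrane, 4 of 26 crosslinking and folding, 2 of 22 contractile and 6 of 17 glycolysis genes. It was also found for 11 of 14 adrenal cortex genes, whose median difference was -1.41 at 16 days and -0.24 at 3 months. With the adrenal cortex score as a term in this test, a fit added after the values were seen, 175 genes (1.20% of those tested) had an unadjusted p under 0.05 with the 16-day difference the lower one. Among them were 3 of 17 elastic fibre and 3 of 17 other collagen genes, and 0 of the fibrillar collagen, basement membrane, crosslinking and folding, contractile and glycolysis genes. The median of the 16-day minus the 3-month difference was then -0.52 for elastic fibre and -0.33 for other collagen genes, against -0.47 and -0.22 without the score. Mouse 9955 was kept in this fit, and the test between times was not run without it. At 16 days, with the score and without that mouse, the elastic fibre median was -0.09.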

How the data were processed

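Total RNA was sequenced from mesenteric arteries freed of fat and veins. The deposited values are a normalized signal per gene: whole reads scaled by an effective size of each library, which puts them near CPM, as the values themselves show. Within 0.001, 100% of positive values came out whole after division by the smallest value of their column. Per the submitters' processing notes, the tools were edgeR 3.6.8, STAR 2.3.1, bcl2fastq 1.8.4, R 3.2.3 and FastQC, in roles that are not stated. Genome build and read counter: not given in the sources used here. A row named ID was dropped, which left 29020 genes, 97.9% of them given a symbol through GENCODE mouse release M21.

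Genes were compared by limma 3.58.1 (R 4.3.3), fitting a variance trend, on log2(value + 1) for the 14544 genes that reached a value of 1 in 6 or more of the 24 libraries, as a means model of 4 groups (20 residual degrees of freedom). A log2 difference on this scale understates the change of low genes. p-values are two-sided and Benjamini-Hochberg adjusted over all genes. The fit with the adrenal cortex score added it as a term, and its 5 genes are not reported from it. The log-scale test planned for CPM was used unchanged for this signal. edgeR 4.0.16 and DESeq2 1.42.0 were run on the recovered reads as alternatives, and called 7 and 41 genes. A gene with 3 reads, the floor, has a value of 0.186 to 0.446, covering counting error alone. Pairs of short-term libraries differed by more than sampling noise (lowest chi-square per degree of freedom 12.2 over 66 pairs). The ID range (1 to 3 or 4 digits) is a split of animal numbers, not a stated batch. The code was tested on simulated counts.

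Members, the 53 gene lists and the naming rule were chosen with earlier results of these data known, and no list was tested as a set. Named are all calls with a symbol, Khdrbs3, Edn1 and Vegfa, the 10 protein-coding genes with the smallest p in each direction with and without the score (leaving out its 5 genes in both), and 3 genes with the smallest p of each list described. ENSMUSG00000095742 and 13 other genes were named after their values were seen (P4hb, mt-Nd2, Hist1h4h, Hist2h2ac, Mgarp, Akr1cl, Fbn1, Myh11, Pecam1, Pdgfra, Myl9, Ednra and Ednrb), besides Mc2r and genes whose upstream sequence held a motif.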

Additional observations from a re-analysis of the deposited data

Results flagged for a closer look

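Single libraries stood apart from the other 5 of their group where the gap to the nearest library, as a share of the group's range, exceeded Dixon's critical value for 6 samples. Over 266 group checks of named genes and described lists, 28 met this, where chance gives about 1 in 20.

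Mouse 9955 (ieCre), the library rich in Gm42418, had the highest ieCre value of Mfap2 (10.3), Zfp13 (9.81), Ankrd35 (5.05), Zfp579 (7.88), Eln (853), Bnc1 (4.75), Upk3b (33.7) and Wt1 (12), and the lowest of Ddx20 (14). Mouse 8992 (ieET-1), one of the pair with an adrenal cortex score of 3.80, had the highest ieET-1 value of Emilin1 (131), Col4a2 (737), Col4a1 (1486), Col15a1 (381), Tln1 (669), Tg (6.31) and Cyp11b2 (0.142, the only ieET-1 library with reads). Its level was also the highest for basement membrane genes (7.01) and for matrix metalloproteinases and inhibitors (5.54). Of the 28 marked values, 9 belonged to mouse 9955 and 9 to mouse 8992.

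Mouse 8987 (ieET-1) was highest for Ddx20 (28.5), Mme (23.6) and Acvr1c (76.2). In ieCre, mouse 9957 was lowest for Prkar2b (22.2) and highest for Mmp23 (81), and mouse 8754 was highest for Trank1 (11.2). In ieET-1, mouse 258 was lowest for Ssbp4 (13), mouse 257 had an endothelium level of 5.98, the lowest, and a mesothelium level of 3.05, the highest, and mouse 8991 was lowest for other collagens (5.24).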

How the results depend on the processing

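No paired analysis was possible because each replicate number is the ID of a different mouse. Against 12 calls, limma called 4 genes in the 12 short-term libraries alone, 1 without the filter, 55 when libraries were weighted, 19 when the ID range was a term, 24 when libraries over 10% Gm42418 were left out, and 1 with each set of adrenal or tissue scores. edgeR called 7 and DESeq2 41. With each mouse left out the count ran from 1 (9957, 256, 257 or 258) to 21 (9955). Of the calls of edgeR and DESeq2, 6 and 11 were shared with the 12. With the adrenal cortex score, the count was 0 in place of 1 in the short-term libraries alone (701 genes at an unadjusted p under 0.05), and from 0 (without 9955) to 1 over mice left out. List medians changed sign in 111 of 1350 combinations of setting and list over 50 lists, and in 2 of 351 for the 13 lists whose median was at least 0.2 in size. Adventitial fibroblast genes were at -0.17 with 5 tissue scores. The score with mouse 9955 left out was an alternative chosen after seeing the data. In that fit elastic fibre genes were at -0.093, endothelium at 0.16 and adventitial fibroblast at -0.17. Basement membrane genes changed sign there, to 0.074. Of the 10 named families, 5 stayed at the ends with a minimum of 5 members and 3 with the score. The sign of these genes reversed in the settings given, and the cause was not tested. Vegfa was at 0.0026 (cortex score), 0.0078 (cortex and chromaffin scores), 0.0040 (summed value). Hao2 was at 0.077 (cortex score), 0.075 (cortex and chromaffin scores), 0.026 (5 scores). Akr1b7 was at 0.081 (5 scores). Srd5a2 was at 0.26 (cortex score), 0.26 (cortex and chromaffin scores), 0.33 (5 scores). Nr5a1 was at 0.0022 (summed value). Cep76 was at -0.077 (weights), -0.025 (without high Gm42418), -0.034 to 0.14 (mice left out in turn). Mgarp was at 0.32 (cortex score), 0.32 (cortex and chromaffin scores), 0.41 (5 scores), 0.19 (summed value). Akr1cl was at 0.96 (cortex score), 0.95 (cortex and chromaffin scores), 1.04 (5 scores), 0.56 (summed value). Ednra was at 0.0016 (without high Gm42418), -0.13 to 0.0039 (mice left out in turn). Scores of tissues were computed from these libraries, and depth, at 10017394 to 16046209 reads, limits genes near the floor of 3 reads.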

Other observations

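In all, 111 genes had no overlap between the groups, 58 lower (0.399% of those tested) and 53 higher (0.364%) in ieET-1. Of the 111, 6 belonged to a list, namely Khdrbs3, Kcnk3, Ppp1r14a, Mme, P4hb and the mitochondrially encoded mt-Nd2. The lists hold 993 entries, beside 14544 genes tested. The share of all tested genes in a list was not computed, so the 6 cannot be called few or many. The respiratory chain subunit mt-Nd2 ran from 485 through a median of 528 to 709 in ieCre. In ieET-1 it ran from 398 through 411 to 467 (log2 -0.38, SE 0.24, limma adjusted p = 0.557). Of the 9 tested mitochondrially encoded genes, 6 were higher in ieET-1, with a median of 0.04.

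Hemoglobin and other erythroid genes were higher in 5 of 5, with a median of 0.56 and 0 at an unadjusted p under 0.05. Their level ran from 7.12 through a median of 8.16 to 8.89 in ieCre and from 7.86 through 8.29 to 10.33 in ieET-1. Within ID ranges it differed by -0.03 (1 to 3 digits) and 1.20 (4 digits). Of 50 cytosolic ribosomal protein genes 38 were higher, with a median of 0.12, and of 11 steroid hormone receptors 9 were higher, with a median of 0.13. Interferon-stimulated genes had a median of 0.08 over 23 genes and immediate early genes -0.06 over 24.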
